A study of Mus musculus with 2 samples.

Results

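The myosin light chain family is described here through 10 genes, Mylpf, Myl1, Myl2, Myl3, Myl4, Myl6, Myl6b, Myl9, Myl12a and Myl12b, out of 55536 annotated genes in the tables. The rule picks genes by name and uses no level, though the family was proposed with earlier results of these data known. All 10 symbols were found, under 11 gene identifiers with 76 transcripts, because Myl12b covers a second locus that reads through from Myl12a. Total RNA of gastrocnemius, the large calf muscle, was sequenced as 1 group of 2 libraries with spike-in RNA added to each. Both libraries came from 2-month-old females of the hybrid B6CASTF1/J, whose parents are a B6 and a CAST mouse, and each was made from 300 ng of RNA. They are called animal 2 and animal 1 after their replicate numbers. The labels number the mice separately but give both libraries the same donor record. If the mice were not separate, each SD below is spread within 1 mouse. A single group allows no comparison of conditions and no p-value. A whole muscle holds many cell types, and fewer cells of a type cannot be told apart from less RNA per cell.

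Myosin of muscle is a hexamer of paired heavy chains, and each heavy chain carries an essential light chain (ELC) and a regulatory light chain (RLC) on its lever arm. The essential chain stiffens the lever, and the regulatory chain tunes the motor when a light chain kinase phosphorylates it. Fast fibres use Mylpf as regulatory chain and Myl1 as essential chain. Slow fibres and the heart ventricle use Myl2 and Myl3 in those places. Myl4 is the essential chain of embryonic muscle and the atrium. Smooth muscle and non-muscle myosins carry Myl6 as essential chain and Myl9, Myl12a or Myl12b as regulatory chain. Myl6b is an essential chain known from slow skeletal fibres in humans and from non-muscle cells.

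Myl1 makes a pair of proteins, MLC1f and MLC3f, from separate starts of transcription. Their own coding starts are printed because the transcript results below turn on them, with the start codon in capitals. Both come from mm10 and GENCODE M21, minus strand of chromosome 1. The 142 nt of Myl1-201 (MLC1f) lie at chr1:66944792-66944905 and chr1:66934246-66934273. The 28 nt of Myl1-202 (MLC3f) lie at chr1:66935276-66935278 and chr1:66934518-66934542. The remaining 422 coding nt are the same in both.
Myl1-201: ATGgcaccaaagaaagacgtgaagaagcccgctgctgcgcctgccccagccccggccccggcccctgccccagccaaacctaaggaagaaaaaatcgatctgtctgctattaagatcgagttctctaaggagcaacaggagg
Myl1-202: ATGtccttcagtgctgaccagattgccg
The longer start gives 188 codons in all and the shorter 150. The MLC1f start carries a run of alternating alanine and proline codons, the extension by which MLC1f is known to reach towards actin and which MLC3f lacks.

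Of the 12 promoter windows that RefSeq gives for the 10 genes (GRCm38.p6, 250 bases before to 50 after each start), 4 are shown. They belong to the fast pair, to the slow essential chain and to the smooth muscle regulatory chain. Capitals mark matches, on either strand, to an E-box (CANNTG), a TATA box (TATAAA), the M-CAT core (CATTCC), a MEF2 site or a CArG box. The Mylpf window is chr7:127211358-127211657 (plus strand), that of Myl1 is chr1:66945007-66945306 (minus strand). The Myl3 window is chr9:110763428-110763727 (plus strand) and that of Myl9 is chr2:156775214-156775513 (plus strand).
Mylpf: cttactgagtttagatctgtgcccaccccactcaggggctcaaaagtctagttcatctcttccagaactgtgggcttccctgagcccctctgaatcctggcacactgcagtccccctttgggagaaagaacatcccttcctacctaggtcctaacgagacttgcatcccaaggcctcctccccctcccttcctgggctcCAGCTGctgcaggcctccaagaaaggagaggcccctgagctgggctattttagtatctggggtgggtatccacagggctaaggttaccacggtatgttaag
Myl1: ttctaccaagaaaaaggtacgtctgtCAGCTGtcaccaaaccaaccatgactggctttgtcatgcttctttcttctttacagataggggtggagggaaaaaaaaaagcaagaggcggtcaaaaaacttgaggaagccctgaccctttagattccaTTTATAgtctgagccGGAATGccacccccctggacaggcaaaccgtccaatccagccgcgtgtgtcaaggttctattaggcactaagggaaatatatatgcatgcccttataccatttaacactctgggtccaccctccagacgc
Myl3: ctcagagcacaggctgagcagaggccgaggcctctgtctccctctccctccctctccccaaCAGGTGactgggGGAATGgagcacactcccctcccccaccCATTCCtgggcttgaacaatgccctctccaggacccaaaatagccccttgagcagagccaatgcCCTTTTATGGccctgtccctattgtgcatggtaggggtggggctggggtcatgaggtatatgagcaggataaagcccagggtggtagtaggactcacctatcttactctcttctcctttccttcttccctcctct
Myl9: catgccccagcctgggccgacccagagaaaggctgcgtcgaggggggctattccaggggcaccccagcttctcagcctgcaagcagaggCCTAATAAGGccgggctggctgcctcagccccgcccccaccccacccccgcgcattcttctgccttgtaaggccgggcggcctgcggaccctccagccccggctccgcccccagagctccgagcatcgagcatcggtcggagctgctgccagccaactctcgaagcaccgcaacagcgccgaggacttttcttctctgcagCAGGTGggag
The Mylpf window held 1 E-box and the Myl1 window an E-box, a TATA box and an M-CAT core. The Myl3 window held a CArG box 85 bases before the start, an E-box and a pair of M-CAT cores, and the Myl9 window held a CArG box 161 bases before the start and an E-box after it. Across the 12 windows, 10 held an E-box, 3 an M-CAT core, 3 a CArG box, 2 a TATA box and 0 a MEF2 site. Of all 32851 windows in the RefSeq table, 72.3% held an E-box, 14.7% an M-CAT core, 13.6% a TATA box, 3.19% a MEF2 site and 1.63% a CArG box. A match describes these letters and is no evidence of binding. The Myl1 window belongs to the upstream start, and its start lies 87 nt downstream of the 5′ end of Myl1-201. The Mylpf window belongs to Mylpf-201. Both Myl2 windows in the table lie 7762 and 8227 nt upstream of the 5′ end of Myl2-201, the leading Myl2 transcript, and are not shown.

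All 10 genes were at 1 TPM (a level corrected for transcript length and depth) or more in both animals, and their levels ran over more than 3 orders of magnitude. Together they held 16038 TPM in animal 2, against 16424 TPM in animal 1, or 3.56% and 3.66% of the TPM of all protein-coding genes. In expected counts they held 0.772% of 47771300 in animal 2 and 0.784% of 45014800 in animal 1. Mylpf was highest, at 8865 TPM in animal 2, against 9598 TPM in animal 1, where it ranked 6 and 5 among protein-coding genes. Myl1 followed at 5269 and 5965 TPM, with ranks 17 and 11. The fast pair together made up 88.1% of light chain TPM in animal 2 and 94.8% in animal 1 (mean 91.4 ± 4.68%, SD, n = 2). The slow pair, Myl2 and Myl3, made up 9.74% and 3.05%. The 5 smooth muscle and non-muscle genes (Myl6, Myl6b, Myl9, Myl12a, Myl12b) made up 2.11% and 2.18%.

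**Figure D1:**
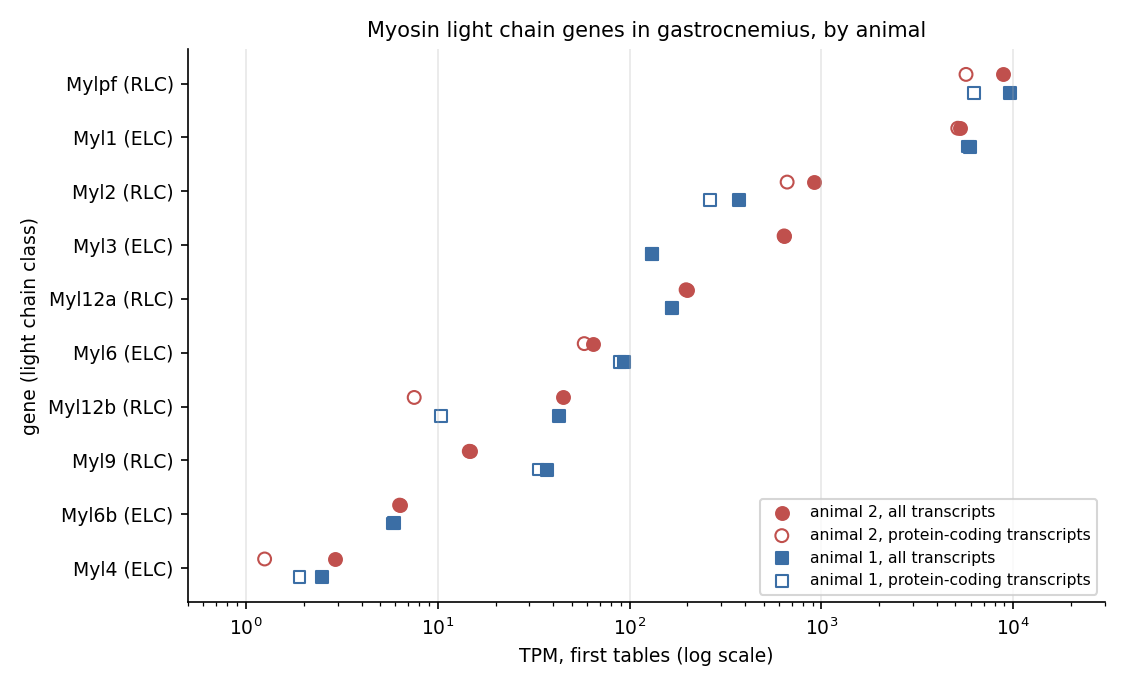
TPM of each light chain gene on a log axis in animal 2 (circles) and animal 1 (squares), with all transcripts filled and protein-coding transcripts alone open, genes ordered by mean TPM and marked as regulatory (RLC) or essential (ELC). Mylpf at 8865 and 9598 TPM and Myl4 at 2.91 and 2.48 TPM are the ends of the range. Myl3 shows the widest gap between animals, followed by Myl2 and Myl9. The open symbols of Mylpf and Myl12b lie well left of the filled ones.

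Ordered by mean, Mylpf (9231 ± 518 TPM, SD, n = 2) was followed by Myl1 (5617 ± 492 TPM), Myl2 (645 ± 389 TPM) and Myl3 (387 ± 361 TPM). Below them came Myl12a (182 ± 22.9 TPM), Myl6 (79.1 ± 20.9 TPM), Myl12b (44.1 ± 1.51 TPM) and Myl9 (25.9 ± 15.8 TPM). Myl6b (6.155 ± 0.304 TPM) and Myl4 (2.695 ± 0.304 TPM) were lowest. Neighbours stood apart in both animals by more than their spread at every step, with the exceptions of Myl2 against Myl3 and of Myl3 against Myl12a. Myl3 was above Myl12a in animal 2 (642 against 198 TPM) and below it in animal 1 (131 against 166 TPM). The level of Myl12b itself rests on a retained-intron fragment, as described below.

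Between the animals, 3 of the 9 members whose counts averaged at least 100 stood at least 2-fold apart, against 2.97% of the 10872 genes with such counts. Myl3 and Myl2 were at least 2-fold higher in animal 2, as 0.791% of genes were, and Myl9 at least 2-fold lower, as 2.18% were. The other 6 lay within 2-fold, and Myl4, at 80 and 73 counts, was under the count limit. The median log2 ratio of the 9 members, animal 2 over animal 1 with TMM scaling of the counts, was 0.00, and that of all 10872 genes 0.02. The median of the absolute log2 ratio over those genes was 0.14. Markers of several tissues also differed between the libraries. The 6 adipocyte genes summed to 35.1 TPM in animal 2 against 579 TPM in animal 1, and all 6 were at least 2-fold lower. So were the 4 of 5 Schwann cell genes with a mean count of at least 100, and that list summed to 32.1 TPM in animal 2 and 234 TPM in animal 1. Tenocyte genes summed to 204 TPM in animal 2, against 114 TPM in animal 1, with 2 of 5 at least 2-fold higher. The part of these tissues in the light chain differences was not tested.

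**Figure D2:**
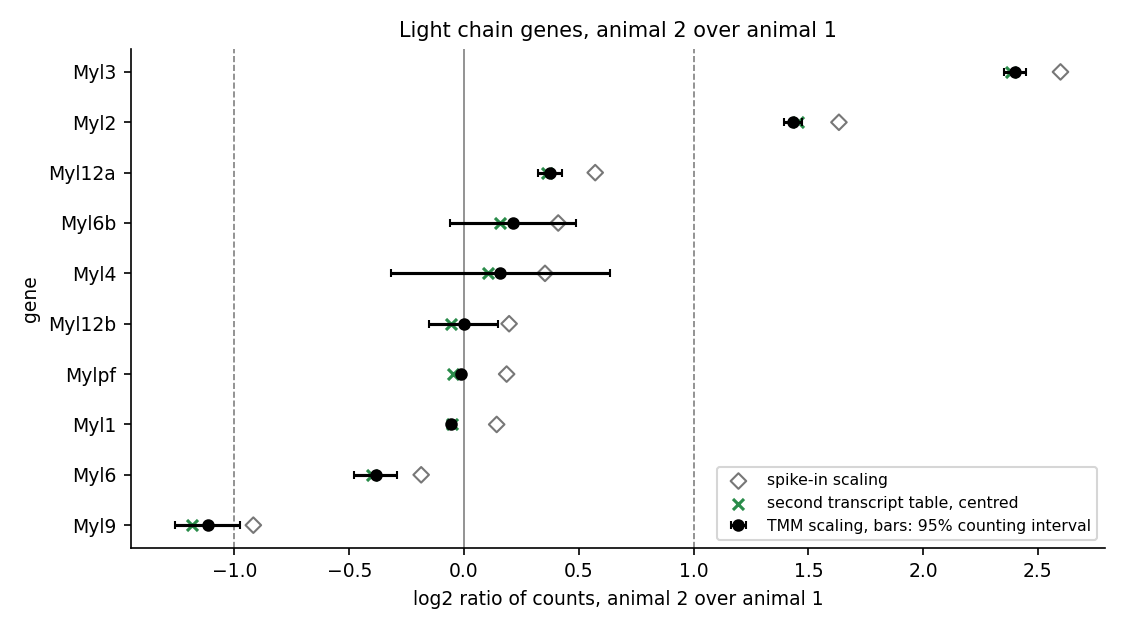
Log2 ratio of expected counts, animal 2 over animal 1, for each light chain gene with TMM scaling (points, bars the exact binomial 95% counting interval), with spike-in scaling (diamonds) and from the second transcript table (crosses); dashed lines mark 2-fold. Myl3 (2.40) and Myl2 (1.43) lie right of the upper line under every scaling, and Myl9 (-1.12) lies left of the lower line except with spike-in scaling (-0.92).

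The fast regulatory chain Mylpf (chr7:127208890-127214298, plus strand) had 158664 expected counts in animal 2 and 162823 in animal 1. Its log2 ratio was -0.01, and the 95% counting interval reached from -0.02 to 0.00. The fast essential chain Myl1 (chr1:66924295-66945404, minus strand) had 159716 and 168900 counts and a log2 ratio of -0.06 (-0.07 to -0.05). Spike-in scaling moved all genes by 0.20 and gave 0.19 for Mylpf and 0.14 for Myl1, so neither has a settled direction between the animals. Fast fibre genes were among those closest to them in level. Nearest to Myl1 by log2(TPM + 1) in the 2 libraries was Myh4, the heavy chain of the fastest fibres, at 5252 TPM in animal 2, against 5755 TPM in animal 1 (distance 0.05). Next were the fast troponin Tnni2 (0.13) and the mitochondrial gene mt-Nd4 (0.17). For Mylpf the nearest of 22027 protein-coding genes were mt-Cytb (0.17), the glycolytic enzyme Aldoa (0.19) and the fast fibre calcium pump Atp2a1 (0.24). A distance over 2 libraries describes levels only.

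Mylpf was spread over several transcripts, and the leading one was not Mylpf-201, the transcript annotated as principal. In the first transcript table Mylpf-206 held 39.2% of Mylpf TPM in animal 2 and 39.4% in animal 1. Mylpf-203, a retained-intron fragment of 285 nt, held 33.9% and 32.7%. Mylpf-201 held 24.8% and 25.5%. Mylpf-206 begins 2709 nt upstream of Mylpf-201 and encodes 149 codons, against 169 in Mylpf-201. The second transcript table gave Mylpf-203 no reads. There Mylpf-206 held 48.1% and 50.3%, the incomplete transcript Mylpf-205, which starts beside it, 30.9% and 37.3%, and Mylpf-201 16.7 ± 6.10% (SD, n = 2). Protein-coding transcripts alone held 5673 TPM of Mylpf in animal 2 and 6231 TPM in animal 1, which set Mylpf 1.10 and 1.07 times above Myl1, where all transcripts gave 1.68 and 1.61. In the second table, which puts nothing on the 285-nt fragment, Mylpf stood 1.43 and 1.46 times above Myl1. Mylpf was above Myl1 by each of these measures, by a distance that differed among them.

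Myl1 was led by the transcript of its internal start. Myl1-202, which encodes MLC3f, held 74.5% of Myl1 TPM in animal 2 and 75.8% in animal 1 in the first table. Myl1-201, which encodes MLC1f, held 22.7% and 21.3%. The 2 shares differed between animals by far less than from each other. In the second table Myl1-202 held 20.9% and 22.8%. There Myl1-207 led with 38.8% and 38.9%, a transcript that starts near Myl1-202 and codes for 276 nt, and Myl1-206, which starts near Myl1-201 and is incomplete, held 25.4% and 28.5%. Both were near 0 in the first table. When transcripts were grouped by 5′ ends within 500 nt of Myl1-202 or of Myl1-201, the internal start held 76.7% and 78.1% in the first table and 59.7% and 61.7% in the second. The internal start lies 9789 nt downstream of the other. The lead of the internal start was thus the same in both tables and both animals, at shares that differed by table, while the split between single transcripts was not the same. The share of a start is not the share of a protein. Myl1-207 lacks the exon with the start codon of Myl1-202, and Myl1-206 carries the coding start of Myl1-201. In the second table Myl1-206 alone held more than Myl1-202 in both animals, so the lead of the MLC3f transcript over MLC1f starts was seen in the first table only.

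**Figure D3:**
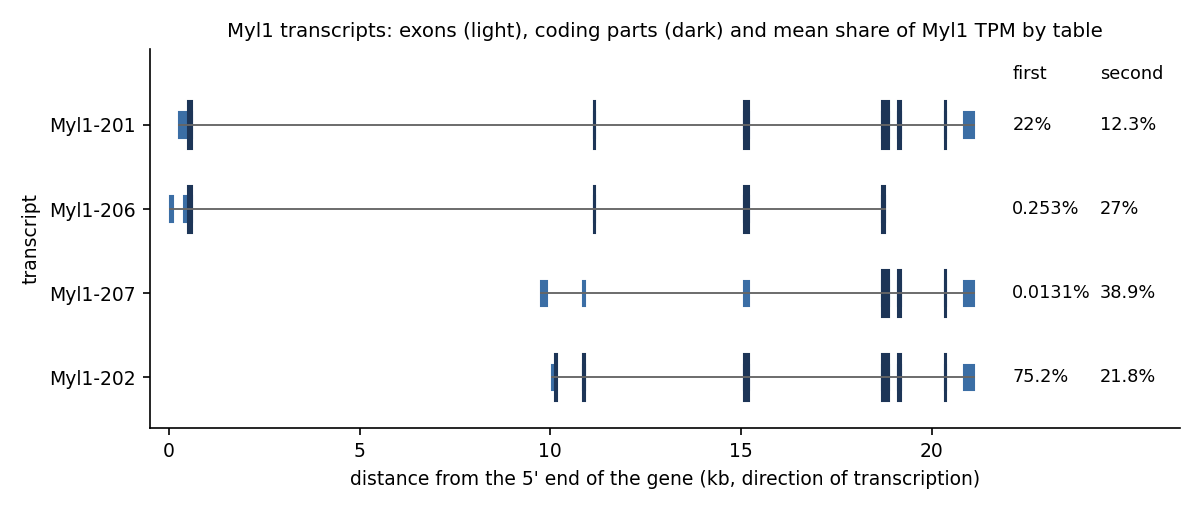
Exons (light) and coding parts (dark) of 4 Myl1 transcripts by distance in kb from the 5′ end of the gene, with each transcript's mean share of Myl1 TPM in the first and second transcript table. Myl1-202 holds 75.2% in the first table and 21.8% in the second, where Myl1-207 from the same region holds 38.9%.

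**Figure D4:**
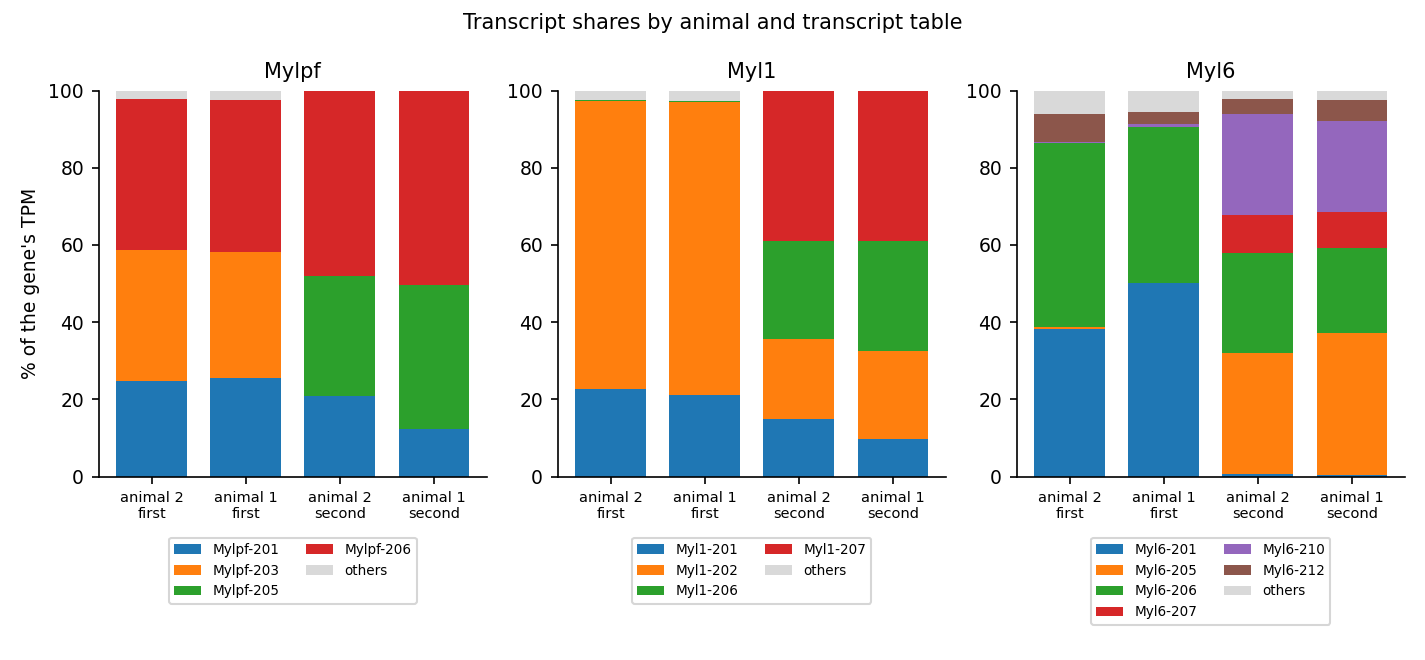
Stacked percent of each gene's TPM by transcript for Mylpf, Myl1 and Myl6, in animal 2 and animal 1 for the first and then the second transcript table; transcripts under 5% in every bar are pooled as others. The tables differ for each gene, as for Mylpf-203 (33.9% and 32.7% in the first table, 0 in the second), and the order of Myl6-201 and Myl6-206 differs between the animals in the first table.

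The slow pair carried the largest differences between the animals. Myl3, the slow essential chain (chr9:110741861-110769798, plus strand), had 642 TPM and 21538 counts in animal 2, against 131 TPM and 4151 counts in animal 1. It was 5.28-fold higher in animal 2, a log2 ratio of 2.40 (95% counting interval 2.35 to 2.45). Myl2, the slow regulatory chain (chr5:122100951-122113472, plus strand), had 919.9 TPM and 18719 counts, against 369.8 TPM and 7043 counts. It was 2.70-fold higher in animal 2, a log2 ratio of 1.43 (1.40 to 1.47). The counting intervals of the slow genes did not overlap, so both were higher in animal 2, by sizes that differed beyond counting error. Myl2 exceeded Myl3 by 1.43 times in animal 2 and by 2.81 times in animal 1.

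As a share of its own pair, Myl3 was 10.9% of Myl3 and Myl1 TPM in animal 2 and 2.16% in animal 1. Myl2 was 9.40% of Myl2 and Mylpf TPM, against 3.71%. Myh7, the slow heavy chain, was 6.42% of the 4 adult heavy chains in animal 2 and 0.998% in animal 1. In the first table the order of these slow shares was thus Myl3, Myl2, Myh7 in animal 2 and Myl2, Myl3, Myh7 in animal 1. In the second table the Myl2 share was 14.7% and 5.26%, the Myl3 share 10.1% and 1.94%, and the Myh7 share 3.84% and 0.621%. There the order was Myl2, Myl3, Myh7 in both animals, so the order in animal 2 depended on the table. As log2 ratios of TPM, Mylpf over Myl2 was 3.27 in animal 2 and 4.70 in animal 1 (mean 3.98 ± 1.01, SD, n = 2). Myl1 over Myl3 was 3.04 and 5.50 (4.27 ± 1.74). Both means exceeded 2 SD with the same sign in both animals.

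**Figure D5:**
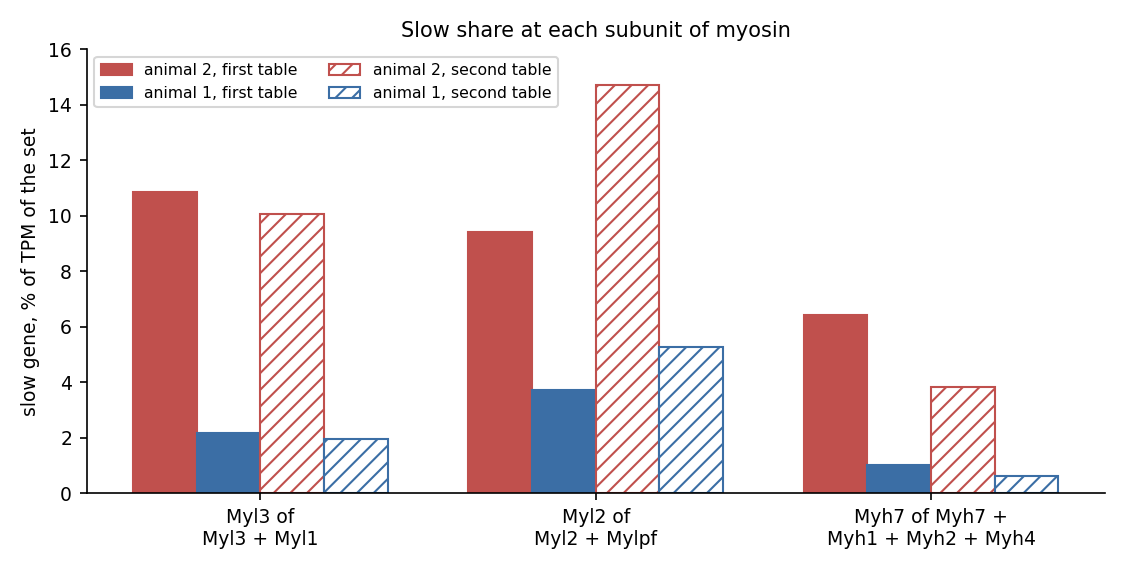
Slow gene as percent of the TPM of its set, for the essential chains (Myl3), regulatory chains (Myl2) and adult heavy chains (Myh7), in animal 2 and animal 1, first table solid and second table hatched. Each slow share is higher in animal 2, as 10.9% against 2.16% for Myl3 in the first table, and in animal 1 the Myl2 share is above the others in both tables.

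Other slow fibre genes stood apart in the same direction. Of the 8 on the list, 7 were at least 2-fold higher in animal 2, as 0.791% of the 10872 genes with enough counts were. Myoz2 (log2 ratio 0.45) lay within 2-fold. The median log2 ratio of the list was 2.50, and the summed level was 2724 TPM against 659.5 TPM. Myh7 had 596 TPM in animal 2, against 92.6 TPM in animal 1 (log2 ratio 2.76). The slow troponins Tnni1 (2.68), Tnnt1 (2.54) and Tnnc1 (2.66) and the slow calcium pump Atp2a2 (2.45) lay close to Myl3, and the calcium store protein Casq2 (1.04) lay below Myl2. Nearest to Myl3 by level in the 2 libraries was Myh7 (distance 0.51), then the lactate dehydrogenase Ldhb (0.83) and Tnnt1 (0.84). Nearest to Myl2 were Gm42417 (0.61), the coenzyme Q gene Coq8a (0.72) and the chaperone Hspa8 (0.73), so no slow fibre gene stood among its first 3. The 8 fast fibre genes were all within 2-fold, at a median of 0.05, with Tnnt3 at 10361 TPM and 10303 TPM. Muscle spindles hold slow and developmental fibres, and their 6 listed genes summed to 196.5 TPM in animal 2 and 91.1 TPM in animal 1. Myh6 and Myh7b were at least 2-fold higher, and the sum followed Myh6, at 124.8 TPM in animal 2, against 18.0 TPM in animal 1. Myh3 (log2 ratio 0.14) and Myh8 (0.03) lay within 2-fold. Etv4 (1.12 and 1.54 TPM) and Egr3 (0.09 and 0.21 TPM) had too few counts for a call. Over the 4 genes with a mean count of at least 100, the median log2 ratio was 1.21. Of these, 2 were at least 2-fold higher in animal 2 and 2 lay within 2-fold. The part of spindles in the slow difference was not tested. Heart muscle shares Myl2 and Myl3, and of 6 heart markers Nppb and Myl7 were at 0 in both animals and Tnni3 at 0 and 0.13 TPM. The cardiac actin Actc1 was the 1 heart marker above 1 TPM in both, at 51.4 TPM and 9.71 TPM (log2 ratio 2.52).

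Within Myl3, Myl3-201 held 99.4% and 99.5% of TPM in the first table, and 61.0 ± 1.01% in the second. Within Myl2, Myl2-201 held 71.4% and 70.5% in the first table, and the non-coding Myl2-210 of 467 nt held 27.5% and 28.9%. Myl2-201 still led in the second table, with 38.3% and 40.7%. There Myl2-210 held 19.3% and 17.7%, and Myl2-208 (22.3% and 21.4%) and Myl2-209 (19.7% and 19.9%), both near 0 in the first table, held most of the rest. In the first table the transcript makeup of both slow genes was alike in the animals while their levels were not.

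The developmental and minor essential chains were low and similar in both animals. Myl4 (chr11:104550663-104595753, plus strand) had 2.91 TPM in animal 2, against 2.48 TPM in animal 1. Its 80 and 73 counts gave a log2 ratio of 0.16 (counting interval -0.32 to 0.63). In the first table the retained-intron transcript Myl4-204 held 56.7% of Myl4 TPM in animal 2 and 23.0% in animal 1, and the protein-coding Myl4-203 held 14.1% and 58.9%, so a different transcript led in each animal. Myl4-204 held 49.3% and 4.13% in the second table, and Myl4-203 held 41.5% and 70.5%. Myl6b (chr10:128494157-128498685, minus strand) had 6.37 and 5.94 TPM, from 237 and 208 counts, and a log2 ratio of 0.21 (-0.06 to 0.49). That interval ends far below the 2.35 at which the interval of Myl3 begins, so the difference of Myl3 was larger than that of Myl6b beyond counting error. Embryonic heavy chain Myh3 (5.50 and 5.41 TPM) and neonatal Myh8 (61.5 and 65.2 TPM) were also alike in both animals, with log2 ratios of 0.14 and 0.03.

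Among the smooth muscle and non-muscle chains, Myl9 stood apart between the animals. Myl9 (chr2:156775420-156781658, plus strand), the regulatory chain of smooth muscle, had 14.8 TPM and 603 counts in animal 2, against 37.1 TPM and 1330 counts in animal 1. It was 2.17-fold lower in animal 2, a log2 ratio of -1.12 (-1.26 to -0.98). Spike-in scaling gave -0.92, which is inside 2-fold. Myl9-201 held 98.8% and 90.2% of Myl9 TPM in the first table and all of it in the second. Of the 8 smooth muscle and pericyte markers, 4 were at least 2-fold lower in animal 2, as 2.18% of the 10872 genes with enough counts were. The other 4 lay within 2-fold, and the median log2 ratio of the list was -0.59. The lower ones were Acta2, Tagln, Myh11 and Cnn1. Smooth muscle actin Acta2 had 22.1 TPM in animal 2, against 57.98 TPM in animal 1, Tagln 13.8 and 53.05 TPM, and the smooth muscle heavy chain Myh11 7.19 and 16.85 TPM (log2 ratio -1.12). Calponin, Cnn1, had 1.27 and 6.84 TPM and the largest difference of the list (log2 ratio -2.44). Within 2-fold, Rgs5, a pericyte gene, had 63.7 and 68.5 TPM, and the smooth muscle gene Smtn 42.8 and 40.4 TPM. The list summed to 162 TPM in animal 2, against 256 TPM in animal 1, and none of its genes was at 0. Its part in the Myl9 difference was not tested.

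Myl6, the essential partner of Myl9 (chr10:128490860-128494145, minus strand), had 64.3 TPM in animal 2, against 93.8 TPM in animal 1, a log2 ratio of -0.39 (-0.48 to -0.29). A pair of its transcripts ends the coding sequence differently. Myl6-201, with 6 exons, and Myl6-206, with 7, share 427 coding nt, and each has 26 nt of its own before the stop codon. They are printed because the animals differed in which led (mm10, minus strand, chr10:128491008-128491033 for Myl6-201 and chr10:128491739-128491764 for Myl6-206).
Myl6-201: agcttgtccggatggtgctgaatggc
Myl6-206: catttgtgaggcatatcctgtcgggg
In the first table Myl6-201 held 38.2% of Myl6 TPM in animal 2 and 50.2% in animal 1, and Myl6-206 held 47.5% and 40.4%. In the second table Myl6-201 held 0.576% and 0.489%, Myl6-206 held 26.0% and 22.0%, and Myl6-205 held 31.3% and 36.7%. The tables thus differ on whether the transcript Myl6-201 is present at more than a trace. Which ending Myl6-205 and the other transcripts carry was not compared, so the share of each ending is not given.

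Myl12a and Myl12b, near-identical regulatory chains, stood apart in level, and the rank of Myl12b turned with the measure. Myl12a (chr17:70993656-71002878, minus strand) had 198 TPM in animal 2, against 166 TPM in animal 1, a log2 ratio of 0.37 (0.32 to 0.43). In the first table Myl12a-210 led with 58.6% and 56.6% of TPM, and Myl12a-201 held 36.4% and 40.2%. The second table reversed the order, with Myl12a-201 at 40.6% and 50.5% and Myl12a-210 at 16.5% and 5.09%. Exons of Myl12a overlap 207 nt of the M-band gene Myom1 on the other strand, which stood at 439 and 434 TPM. The strand setting of the counting is not given in the sources used here, so reads of the overlap may not be told apart. Myl12b (chr17:70973133-70990890, minus strand) had 45.1 and 43.0 TPM and a log2 ratio of 0.00 (-0.15 to 0.15). Of that, 83.2% and 75.3% sat on Myl12b-202, a retained-intron fragment of 369 nt, so that protein-coding transcripts held 7.53 and 10.3 TPM. The second table put 1.79 ± 0.367% there and 15.7 and 22.3 TPM on the gene as a whole. Over all transcripts of the first table Myl12b was above Myl9, but Myl9 was above Myl12b over protein-coding transcripts, at 14.6 and 33.5 TPM, and in the second table, at 20.6 and 51.1 TPM. The readthrough locus had 9.93 and 12.1 TPM in the first table and 0 in the second.

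The sums of the classes bear on how message compares with the equal numbers of both chains in the protein. Essential chains summed to 5984 TPM in animal 2, against 6199 TPM in animal 1, and regulatory chains to 10053 and 10225 TPM. The log2 ratio of essential over regulatory was -0.75 and -0.72 (mean -0.74 ± 0.02, SD, n = 2). It was -0.61 and -0.60 in the second table, and -0.17 and -0.15 over protein-coding transcripts alone. In counts, which grow with transcript length, it was -0.02 and -0.02. The excess of regulatory message over essential message was thus the same in both animals within 1 measure, and its size depended on the measure. The sarcomeric essential chains (Myl1, Myl3, Myl4) held 0.624 and 0.651 times the TPM of the 8 sarcomeric heavy chains, and Mylpf with Myl2 held 1.03 and 1.06 times. In the second table those ratios were 0.882 and 0.939 for the essential chains, and 1.33 and 1.41 for the regulatory chains.

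None of the kinase, phosphatase, calmodulin or folding genes with a mean count of at least 100 was 2-fold apart between the animals. Of all 10872 genes with such counts 2.97% were, so lists of this size would hold few in any case. Of 46 genes on 6 partner lists, 41 reached 1 TPM in each animal. Among all 55536 annotated genes, 11425 reached it in animal 2 and 11889 in animal 1. Among 10 light chain kinases, 9 reached that level and none of the 9 with enough counts was 2-fold apart (median log2 ratio -0.11). Mylk2, the skeletal muscle kinase of the regulatory chain, had 159 TPM in animal 2, against 186 TPM in animal 1. Mylk4 had 167 and 301 TPM, a log2 ratio of -0.72. Among 9 light chain phosphatase genes, all reached 1 TPM in each animal and none of the 8 with enough counts was 2-fold apart (median -0.01). Its catalytic subunit Ppp1cb had 174 and 195 TPM, and the striated muscle targeting subunit Ppp1r12b had 75.9 and 71.1 TPM. The 3 calmodulins, which switch the kinases on, summed to 357 and 356 TPM with a median of 0.13. The 8 genes of myosin folding and turnover had none apart (median 0.19), with the myosin methyltransferase Smyd1 at 133 and 118 TPM. Of 14 heavy chains, 12 reached 1 TPM in each animal and 13 had a mean count of at least 100. Among those 13, Myh7, Myh6 and Myh7b were at least 2-fold higher in animal 2 and Myh11 lower. Myh6 had 124.8 TPM in animal 2, against 18.0 TPM in animal 1. Of the remaining light chain genes, Myl7 was at 0 in both animals and Myl10 at 1.26 and 0.92 TPM.

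The members' coding sequences fell by class, which the choice by name did not use. Over principal transcripts, identity of aligned coding nt ran from 66.1% to 96.5% (median 68.8%) in 10 pairs of regulatory chains. It ran from 69.8% to 80.2% (median 73.7%) in 10 pairs of essential chains, and from 57.8% to 65.7% in 25 pairs across the classes. Myl12a and Myl12b differed at 18 of 516 nt. Myl9 was 85.7% identical to Myl12a and 86.4% to Myl12b, and Myl6 was 80.2% identical to Myl6b. The fast and slow counterparts were further apart, at 71.7% for Mylpf and Myl2 and 73.3% for Myl1 and Myl3. The pair of Myl12a and Myl12b and that of Myl6 and Myl6b are neighbours in the genome, while Myl9 lies on another chromosome than Myl12a and Myl12b. Myl6b ends 11 nt before Myl6 begins on the same strand, yet Myl6 stood at 64.3 and 93.8 TPM, against 6.37 and 5.94 TPM for Myl6b. Myl12b follows Myl12a on the same strand after 2765 nt. Of 100-nt words in member transcripts, none of Mylpf, Myl2, Myl3, Myl4, Myl6b or Myl9 occurred in another gene. Of Myl12a words 16.3%, of Myl12b words 24.0%, of Myl1 words 4.45% (pseudogene Mylf-ps) and of Myl6 words 3.43% (5 pseudogenes) did, so reads of these genes could be split.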

How the data were processed

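Expected counts, TPM, the percent of a gene's TPM on each transcript and a posterior SD of each count were deposited by the authors in gene and transcript tables of the RSEM column layout (first tables). Estimated counts and TPM in the kallisto layout (second table) were deposited too. Per the file lists the build is mm10 with GENCODE M21, while tools, versions and strand setting are not given in the sources used. Reads of a B6 and CAST cross were counted on a B6 genome, and the effect on a gene was not analysed here. The first tables subtract 99 nt from transcript lengths. From long transcripts the second subtracts a median of 344 nt (animal 2) and 338 nt (animal 1). It subtracts less from short ones, and Mylpf-203, of 285 nt, keeps 64.4 and 64.6 nt there. Second-table TPM of Mylpf was 1.78 and 1.98 times that of the first, at 0.943 and 0.971 times its counts.

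Values are means ± SD over the 2 libraries. Levels of different genes are compared in TPM, pair ratios with a pseudocount of 0.1 TPM. Ratios between animals are log2 of rounded expected counts over all 55536 genes, with edgeR TMM factors, a prior count of 0.5 and exact binomial 95% intervals on 2 counts, which cover counting error only. The ratio step, not the intervals, was tested on simulated data. Calls need a mean count of 100 and 2-fold. Rows that name no gene, with 5 and 3 counts (1.04e-05% and 6.63e-06%), and spike-ins stayed out of library sizes. At these depths a gene of few counts, such as Myl4, has a wide interval. Neighbours in the order of levels were called apart where both animals' values did not overlap and means differed by more than the larger SD.

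The family, gene lists and rules were proposed with earlier results of these data known. The rule for naming covered all members, the 3 highest of each list, list members 2-fold apart, and the 3 genes nearest to each fast and slow member. Not every list gene that it covered is named above. The remaining marker lists (endothelial, fibroblast, satellite cell, macrophage, erythroid, spindle) held 6, 6, 5, 5, 5 and 6 genes at medians of -0.18, -0.33, 0.21, -0.56, 0.43 and 1.21. These medians cover genes with a mean count of at least 100. Among such genes, 2 of the fibroblast list were at least 2-fold lower in animal 2, as 2.18% of all genes were. The protein comparison was not run, since no protein table was used here, and coding nt were aligned instead (Biopython 1.88), added after values were seen. Versions were matplotlib 3.10.9, pandas 2.3.3, numpy 2.4.6, Python 3.11.15, DESeq2 1.42.0, edgeR 4.0.16 and R 4.3.3.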

Additional observations from a re-analysis of the deposited data

How the results depend on the processing

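The share of the fast pair, both fast over slow ratios, the count of genes at 1 TPM and the count of members 2-fold apart kept their values within the spread, or within 1.5 times for counts, under the alternatives run for them. The spike-in scaling left 2 members 2-fold apart, without Myl9 (-0.92), and moved the median of all genes by 0.20, library size alone by -0.11. The log2 ratio of essential over regulatory chains moved from -0.74 to -0.60 in the second table, to -0.16 over protein-coding transcripts (added after seeing the data) and to -0.018 in expected counts. The Myl1-202 share moved from 75.2% to 21.8% in the second table and 70.1% in counts. By start site (also added) the internal start held 77.4% in the first table and 60.7% in the second. A leading transcript held at least 50% of its gene in 7 of 10 members, and the same transcripts did so in 3 in the second table, where 5 of 10 members had the same leading transcript. The cause of the differences between the tables was not tested. Of alternatives for single genes and transcripts, 101 counted as the same, 38 moved and 1, that of Myl9, lost its call. Levels and shares counted as the same within the SD. Called ratios between the animals did so while at least 2-fold, and other ratios inside the counting interval. None changed the sign of a called value. No paired analysis was possible because both libraries belong to 1 group. Counts of 80 and 73 limit Myl4.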
